A study of Ovis aries with 42 samples.

Results

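The livers of fetal sheep with cystic fibrosis (CF) were compared between late and early fetal life. All 10 fetal CF liver libraries were taken by their labels, out of 24 liver libraries and 42 libraries in the series. Late CF liver comprised 4 libraries, 2 at gestation day 100 (d100) and 2 at d120. Early CF liver comprised 4 libraries, 2 at d50 and 2 at d65, and the 2 libraries at d80 served as a midpoint. The series set sheep without working CFTR, an anion channel of secretory epithelia whose loss causes the disease, against wild-type (WT) sheep, in liver and gallbladder. All CF groups carry the CFTR -/- genotype and received no stated treatment, and the labels name neither the altered part of the gene nor the sex of the fetal animals. RNA came from whole frozen liver, so every value is a mixture of hepatocytes, blood-forming cells, bile duct cells and supporting cells, in which fewer cells of a type and less RNA per cell cannot be told apart.

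During fetal life the liver is a blood-forming organ and an endocrine and secretory one at the same time. Red cells, platelets and white cells arise between the growing cords of hepatoblasts, and blood formation later leaves for the bone marrow. Hepatoblasts give rise to hepatocytes, which take on the making of plasma proteins, detoxification and bile secretion, and to the cells that line the bile ducts, the liver cells known for CFTR.

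The values are estimated counts per gene, scaled by library total and normalisation factor to CPM, the usual counts-per-million unit. CPM are not corrected for gene length, so they are compared between libraries and never between genes. Library totals of the 10 libraries lay between 46451090 and 55175792 counts. The late minus early difference was tested with the quasi-likelihood test of edgeR on all 16508 genes that passed the filter on low counts, with p-values adjusted over all of them and a threshold of 0.05 for a call. It averages d100 with d120 and d50 with d65 on the log2 scale and is given with an approximate standard error (SE). This SE is the size of the difference divided by the square root of the test's F statistic. For genes without a count at a stage, both the difference and its SE depend on the small count added by the model. Levels are given as mean ± SD over 4 libraries a side, unless single libraries are listed. The labels' donor numbers differ between libraries of a stage, but the d65 pair shares a number stem, as does the d80 pair, and 1 number of the d100 pair also labels a WT d65 liver. How the animals were related was not stated.

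Libraries differed in ways that moved with stage. Tested genes with any count numbered 15773 and 15945 at d50, 14652 and 14577 at d65, 14593 and 15125 at d80, 15527 and 15276 at d100, and 16194 and 16037 at d120. The share of all counts taken by globin genes was 8.0% and 8.28% at d120 and lay between 10.9% and 20.2% in the 8 other libraries. Each library was closest by rank correlation to the other library of its stage, except the d80 pair, both of which were closest to a d100 library. Outside its own stage, d50 replicate 2 was closest to the d120 libraries (rank correlations of 0.960 and 0.959), against 0.942 with both d65 libraries. The part of these differences in the results was not tested. Hepatocyte markers were high throughout, with albumin (ALB) between 55851 and 84699 CPM in the 10 libraries.

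CFTR itself was counted in every CF library. Late CF livers had 5.66 and 3.03 CPM at d100 and 17.3 and 6.05 CPM at d120, against 1.06 and 0.69 CPM at d50 and 1.51 and 0.77 CPM at d65. The late and early libraries did not overlap, and the d80 livers, with 3.84 and 4.78 CPM, lay above every early library and within the late range. The late minus early difference was 2.83 ± 0.40 (log2, SE; edgeR adjusted p = 0.0002). WT livers averaged 1.84 ± 0.73 CPM late and 1.47 ± 0.40 CPM early (SD, n = 4 each). The difference between the CF and WT changes was 2.48 ± 0.54, which missed the threshold (edgeR adjusted p = 0.15). A transcript count does not check the genotype where the altered part of the gene is not known.

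Across the transcriptome, 1322 genes were higher in late than in early CF liver, 8.01% of those tested, and 1000 were lower, 6.06%. At an unadjusted p under 0.05 the number was 5030 in both directions. The called genes that rose did so by more than those that fell, with a median log2 difference of 1.30 among the higher and -0.75 among the lower. Changes beyond 2 log2 units numbered 394 upward and 91 downward. The median over all genes tested was 0.04. Scaling by library totals alone moved that median to 0.26 and the split to 1664 higher and 382 lower genes. The d120 libraries had normalisation factors of 1.36 and 1.11, against 0.780 to 1.03 in the 8 other CF libraries. All 4 late libraries lay above all 4 early ones for 1306 genes, 7.91%, and below them for 854 genes, 5.17%.

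How many genes were called depended on which stages entered. Without the d120 pair, a comparison added after the data were seen, 313 genes were higher and 40 lower, of which 309 and 40 were among the main calls. Without the d65 pair 544 were higher and 375 lower. The single library with most weight was d50 replicate 1, without which 554 genes were higher and 271 lower.

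Intermediate levels at d80 were the rule among called genes. Of the 1322 higher genes, d80 lay between the early and late means for 1001 (75.7%), and nearer to late for 661 (50.0%). For the 1000 lower genes, d80 was between for 817 (81.7%) and nearer to late for 399 (39.9%). These shares describe genes chosen on their late and early values. The median higher gene stood 0.51 and 0.49 log2 units above the early mean in the d80 libraries, 0.79 in both at d100, and 1.29 and 1.21 at d120. The median lower gene stood at -0.23 and -0.35 at d80, -0.40 in both at d100, and -1.11 and -1.0 at d120. On this scaling most of the fall of the median lower gene thus lay between d100 and d120. Part of it, like part of the rise, was present at d80. The normalisation factors were 0.924 and 0.867 at d100 and 1.36 and 1.11 at d120, and a larger factor lowers CPM. The course under library totals alone was not computed, so the place of the largest step may depend on the scaling. The courses of the higher and lower genes both describe genes called on these same late and early libraries. Their difference in timing was not tested.

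**Figure D1:**
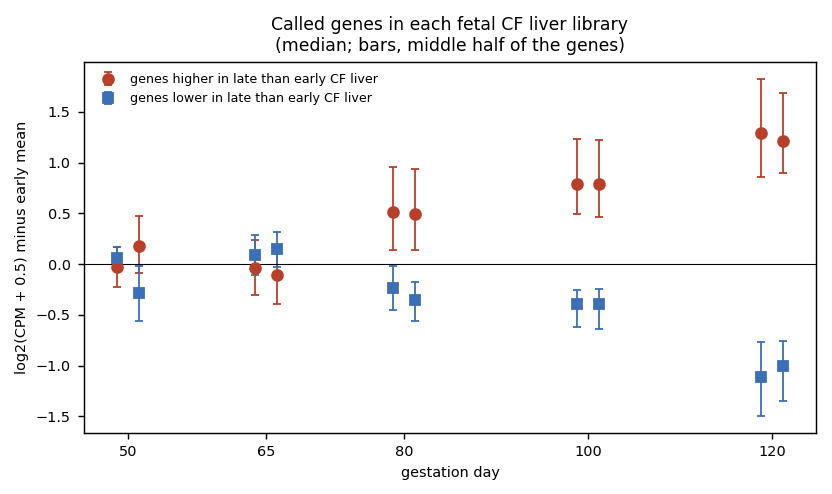
Each point is the median over the called genes in 1 fetal CF liver library (circles, 1322 genes higher in late than early liver; squares, 1000 lower genes), as log2(CPM + 0.5) minus the early mean, against gestation day; bars span the interquartile range over the genes. The higher genes stand near 0.5 at d80 and 0.79 at d100, while the lower genes stand near -0.4 at d100 and below -1 at d120.

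Tested directly, d80 CF liver differed from early CF liver in 198 higher genes (1.2%) and 30 lower genes (0.182%), and 2597 genes had an unadjusted p under 0.05. Late CF liver differed from d80 in 32 higher genes (0.194%) and 37 lower genes (0.224%), with 3228 at an unadjusted p under 0.05. Of the 1322 higher genes, 185 were already called at d80 against early liver and 28 between d80 and late liver. Of the 1000 lower genes, those numbers were 9 and 31. The d80 pair has 2 libraries against 4, so fewer calls there do not show smaller changes.

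A few genes stood apart at d80 from both sides. RHOD, a small GTPase, had 20.0 and 25.3 CPM at d80, above every late library (8.27 to 11.6 CPM) and every early library (7.12 to 17.0 CPM). Each of its calls was lost in all 6 leave-outs of a single library, with library totals alone and with 1 unit per donor-number stem (edgeR adjusted p up to 0.45 against early and 0.42 against late). CCDC141 was lowest at d80, with 0.27 and 0.06 CPM, against 1.74 to 2.21 CPM late and 0.98 to 7.33 CPM early, and its call against late was lost without d80 replicate 2. NDUFA4L2 was also called in both tests, but 1 of its d80 libraries held 14.0 CPM and the other 0.31 CPM. Both of its calls were lost without the first of these.

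The largest increases included secreted and transport proteins of hepatocytes. FGL1, a secreted protein of the fibrinogen family, had 119 and 93.3 CPM at d100 and 296 and 337 CPM at d120, against 0.63 and 1.21 CPM at d50 and 2.76 and 1.27 CPM at d65. The d80 livers stood at 40.6 and 65.7 CPM, and the late minus early difference was 7.07 ± 0.47 (log2, SE; edgeR adjusted p = 1.6e-07). AQP9, the hepatocyte channel for glycerol and water, had 75.7 and 36.3 CPM at d100 and 167 and 115 CPM at d120, against 0.45 and 0.73 CPM at d50 and 1.09 and 0.10 CPM at d65, a difference of 7.24 ± 0.60. Both genes were near 0 early and were already called higher at d80.

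PRG4, which encodes a lubricating glycoprotein also secreted by liver, had between 32.0 and 52.6 CPM in the late libraries, against 0 to 0.50 CPM in the early ones. CP, the copper carrier ceruloplasmin, had 67.4 and 35.1 CPM at d100 and 119 and 120 CPM at d120, against 0.49 and 0.44 CPM at d50 and 1.49 and 17.3 CPM at d65. One early CP value thus stood far from the other 3, yet below every late value. CERS4, a ceramide synthase, had 51.9 to 122 CPM late against 0.88 to 4.69 CPM early. ANGPTL8, a regulator of lipoprotein lipase, had 3.87 to 11.2 CPM late and only 4 counts over all early libraries. Without a count at d65 its fitted fold depends on the small count added by the model, and the ratio of the mean CPM was 402. CR2, the complement receptor of B cells and follicular dendritic cells, had 3.04 to 15.1 CPM late and 5 counts early, and also none at d65. None of these genes lost its call with any 1 of the 8 libraries left out.

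**Figure D2:**
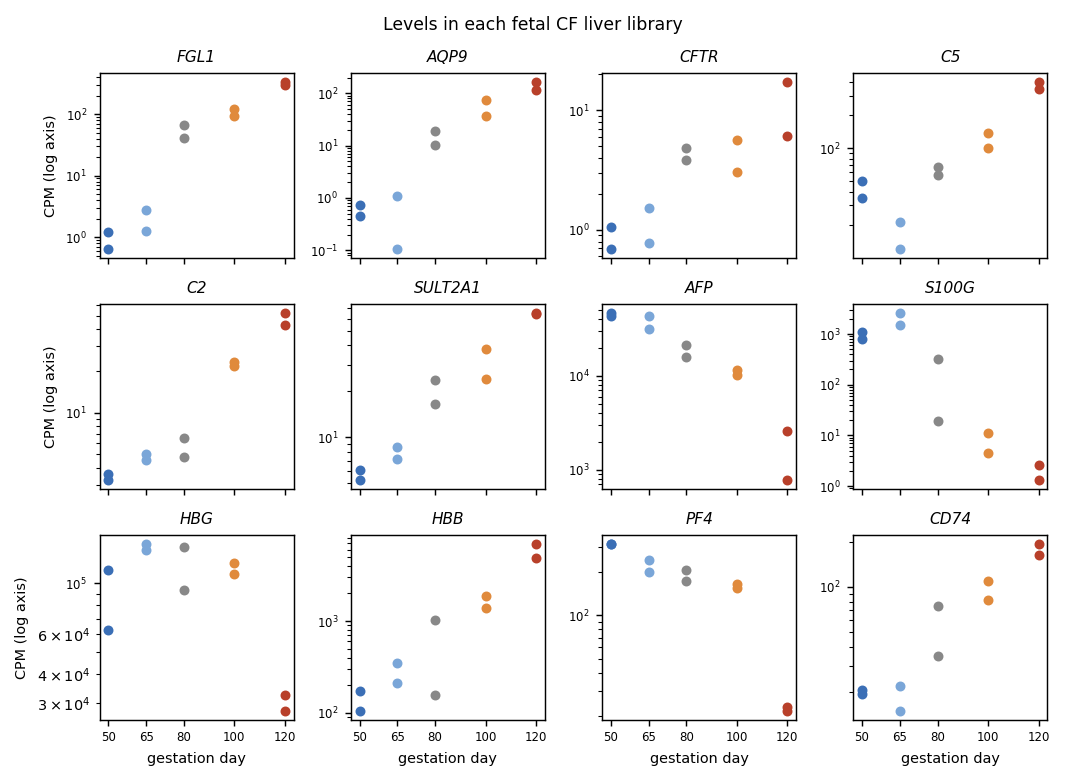
Levels of 12 genes in each of the 10 fetal CF liver libraries, in CPM on a log axis, against gestation day; each point is 1 library. FGL1 lies between 93.3 and 337 CPM late and between 0.63 and 2.76 CPM early, and HBG and PF4 stand lowest at d120.

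The complement system, the plasma cascade that marks and lyses microbes, rose almost as a whole. Of 23 complement genes tested, 22 were higher in late CF liver and none was lower, with a median log2 difference of 2.01 beside 0.04 over all genes. For this and every other list, the shares over all genes tested were 8.01% higher and 6.06% lower. Summed over the list, late livers had 6111 to 9274 CPM, against 1643 to 2452 CPM in early livers. For 21 members all late libraries lay above all early ones, as for 7.91% of all genes tested. These are the same libraries that gave the calls. C2, a protease of the classical pathway, had 23.2 and 21.8 CPM at d100 and 52.5 and 43.1 CPM at d120, against 3.25 to 5.04 CPM early (3.01 ± 0.21, log2, SE; edgeR adjusted p = 2.3e-07). C5, the start of the lytic complex, had 138 and 101 CPM at d100 and 402 and 345 CPM at d120, against 35.0 and 50.3 CPM at d50 and 21.1 and 11.9 CPM at d65. C4A had 78.6 to 134 CPM late against 11.7 to 23.2 CPM early, though near-identical C4 copies could share its counts. C1S, the protease that opens the classical pathway, averaged 186 ± 81.0 CPM late and 35.9 ± 13.8 CPM early. MBL2, the mannose-binding lectin, averaged 68.0 ± 66.6 CPM late and 0.60 ± 0.41 CPM early, with 10.03 and 13.3 CPM at d100 but 142 and 107 CPM at d120. The 1 member not called was properdin (CFP), which myeloid cells make, at 27.0 CPM late and 18.0 CPM early (edgeR adjusted p = 0.080). Already at d80, 11 complement genes were higher than in early liver. The count of 22 stood at 21 or 22 with any 1 library left out, at 17 without the d120 pair and at 13 between d100 and d50.

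Other plasma proteins moved less evenly. Among 30 acute phase and carrier proteins, 11 rose and 2 fell, with a median of 0.58. ITIH4, an inter-alpha-inhibitor chain, averaged 787 ± 177 CPM late and 255 ± 169 CPM early, and LRG1, a leucine-rich glycoprotein, averaged 81.0 ± 33.5 CPM late and 24.5 ± 9.03 CPM early. ORM1, the acute phase glycoprotein orosomucoid, went the other way, with 14.9 to 28.6 CPM late against 166 to 883 CPM early. Its d80 livers had 32.2 and 1776 CPM, so 1 of them exceeded every early library. The ORM1 call was lost without either d100 library or without d120 replicate 1 (edgeR adjusted p up to 0.24 over all alternatives). The other member that fell, SERPINA6, the cortisol-binding globulin, averaged 87.1 CPM late and 285 CPM early and is named after its values were seen.

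Coagulation factors rose in 12 of 25 cases and fell in 1, with a median of 0.82. F5, a cofactor of thrombin formation, averaged 116 ± 27.8 CPM late and 50.0 ± 27.3 CPM early. F11 averaged 37.3 ± 7.43 CPM late and 9.03 ± 1.48 CPM early. The beta chain of fibrinogen, FGB, averaged 8761 ± 2463 CPM late and 4438 ± 1085 CPM early, and its call was lost without d50 replicate 1. F13A1, the fibrin-stabilising factor of platelets and macrophages, was the member that fell, to 17.2 ± 11.2 CPM late against 45.9 ± 8.65 CPM early. Called higher were 2 coagulation genes without the d120 pair, 3 without the d65 pair and 4 without d50 replicate 1.

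Alpha-fetoprotein (AFP), the fetal counterpart of albumin, fell steeply. Late livers had 11641 and 10253 CPM at d100 and 772 and 2596 CPM at d120, against 43765 and 47106 CPM at d50 and 43470 and 31788 CPM at d65. The d80 livers had 21375 and 15864 CPM, and the late minus early difference was -3.27 ± 0.47 (log2, SE; edgeR adjusted p = 0.00023). AFP was thus lower at each stage after d65 than at the one before. The call was lost without the d120 pair (edgeR adjusted p up to 0.094 over all alternatives). Albumin (ALB) averaged 75796 ± 11264 CPM late and 68836 ± 10354 CPM early, which was not called. Also not called were 3 other plasma proteins with very high counts. AHSG, fetuin, averaged 72010 CPM late and 82596 CPM early, TF, transferrin, 13516 CPM late and 14104 CPM early, and APOA2, an apolipoprotein, 11164 CPM late and 12609 CPM early.

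Of 22 oncofetal genes, 4 fell and 1 rose, with a median of -0.17 that became 0.04 when libraries were scaled by their totals alone. Beside AFP, the RNA-binding proteins IGF2BP1 and IGF2BP3 and LIN28B, a repressor of let-7 processing, were lower in all 4 late libraries. Such a separation was seen for 5.17% of all genes tested. LIN28B averaged 2.61 ± 1.41 CPM late and 8.83 ± 3.49 CPM early, and IGF2BP1 7.30 ± 1.9 CPM late and 17.6 ± 3.43 CPM early. IGF2, the fetal growth factor, was the member that rose, to 121 ± 62.9 CPM late against 53.5 ± 32.8 CPM early, but its libraries overlapped. The IGF2 call was lost in 5 of the 8 leave-outs and its direction reversed between d100 and d50. Without the d120 pair 1 oncofetal gene was called lower.

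S100G, a calcium-binding protein best known from the intestine, had the largest fall on the log scale among the named genes. It had 11.3 and 4.57 CPM at d100 and 1.29 and 2.66 CPM at d120, against 1086 and 786 CPM at d50 and 2642 and 1530 CPM at d65, a difference of -8.46 ± 0.85 (log2, SE). The d80 pair was split, at 19.2 and 323 CPM. TDGF1, a coreceptor of Nodal signalling, had 0 to 0.26 CPM late against 3.86 to 6.24 CPM early. CITED1, a transcriptional coregulator, had 0.06 to 0.67 CPM late against 4.95 to 14.8 CPM early. The choline-like transporter SLC44A4 averaged 1.94 ± 0.94 CPM late and 21.8 ± 3.82 CPM early. PHLDA2, an imprinted growth-limiting gene, averaged 1.44 ± 0.82 CPM late and 9.22 ± 4.49 CPM early, and STEAP1, a metalloreductase, averaged 0.22 ± 0.36 CPM late and 6.26 ± 4.99 CPM early. PHLDA2 and STEAP1 lost their calls without the d120 pair.

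Of 28 hepatocyte transcription factors tested, 7 rose and none fell, with a median of 0.37. NFIA averaged 37.9 ± 8.81 CPM late and 13.2 ± 4.47 CPM early. The xenobiotic sensors NR1I2 (PXR) and NR1I3 (CAR) rose too. NR1I2 averaged 15.6 ± 3.24 CPM late and 5.71 ± 1.24 CPM early, and NR1I3 averaged 1.61 ± 0.79 CPM late and 0.29 ± 0.27 CPM early. HNF4A, the central hepatocyte factor, had 190 to 227 CPM late and 142 to 175 CPM early without a call. Without the d120 pair 2 members were called higher, and 3 without d100 replicate 1.

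Drug and bilirubin metabolism rose in 12 of 34 members and fell in 2, with a median of 0.33. SULT2A1, which sulfates steroids and bile acids, had 38.1 and 24.2 CPM at d100 and 65.7 and 64.2 CPM at d120, against 5.20 to 8.57 CPM early (2.75 ± 0.32, log2, SE; edgeR adjusted p = 3.3e-05). CYP3A24, a CYP3A family oxidase, had 19.3 to 72.0 CPM late against 1.00 to 3.30 CPM early. UGT1A1, which conjugates bilirubin, had 16.8 and 5.0 CPM at d100 and 27.1 CPM in both at d120, against 4.51 and 4.20 CPM at d50 and none at d65. Its d100 and d50 values thus nearly met, and the call was lost without the d65 pair. CYP1A2 had 98 counts over the late libraries and none in the early ones, at least 28.3-fold higher against a floor of 3 counts over the early group. Counts of CYP3A24 and UGT1A1 may be shared with close relatives. The 2 members that fell were ADH4 and BLVRB, named after their values were seen, and without the d65 pair 4 members were called higher.

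Genes of bile formation rose in part. Of 16 bile acid synthesis genes 5 rose and 1 fell (ACOT8, named after its values were seen), with a median of 0.26. CYP7A1, which sets the pace of bile acid formation from cholesterol, had 2.05 and 1.78 CPM at d100 and 13.6 and 6.60 CPM at d120, against 0 to 0.12 CPM early (6.92 ± 0.92, log2, SE; edgeR adjusted p = 0.00011). NR1H4, the bile acid sensor FXR, averaged 38.1 CPM late and 24.7 CPM early, but was not called without the d120 pair. Without the d120 pair 1 member was called higher, and 3 without d50 replicate 1.

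Of 19 bile acid and bile lipid transporters 4 rose and 1 fell, with a median of 0.39. SLC10A1, the sodium-dependent uptake carrier of bile acids, had 20.5 and 18.6 CPM at d100 and 85.6 and 43.9 CPM at d120, against 1.60 to 5.63 CPM early (3.17 ± 0.35). ABCB11, the bile salt export pump, averaged 162 ± 39.0 CPM late and 84.6 ± 9.35 CPM early, and ABCC2, the exporter of bilirubin conjugates, averaged 54.9 ± 23.7 CPM late and 19.4 ± 8.12 CPM early. SLCO2B1, an uptake carrier of organic anions, had 22.4 to 72.5 CPM late against 5.95 to 12.5 CPM early. All 4 called carriers were higher in every late library than in any early one, as were 7.91% of all genes tested. These are the same libraries that gave their calls. ABCG5, part of the sterol exporter, was the member that fell and is named after its values were seen.

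Urea cycle and amino acid genes had 3 higher and 3 lower of 34, with a median of 0.12. These counts lay near the shares over all genes tested (8.01% higher and 6.06% lower). TDO2, the first enzyme of tryptophan breakdown, averaged 194 ± 49.9 CPM late and 45.4 ± 14.6 CPM early, and kept its call in every comparison, the d100 against d50 one included. GOT1, an aspartate aminotransferase, fell to 39.5 ± 27.0 CPM late against 120.8 ± 20.7 CPM early, with 70.8 and 53.1 CPM at d100 but 14.6 and 19.4 CPM at d120. The ornithine carrier SLC25A15 averaged 56.3 ± 14.4 CPM late and 103 ± 4.21 CPM early.

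Gluconeogenesis and glycogen genes had 7 higher and 4 lower of 23, with a median of 0.41. SLC2A1, the glucose carrier of red cells and fetal tissues, averaged 327 ± 180 CPM late and 679 ± 144 CPM early, and the d120 libraries, at 177 and 173 CPM, were the lowest. PCK2, the mitochondrial carboxykinase, averaged 85.8 ± 29.1 CPM late and 191 ± 46.9 CPM early. FBP2 averaged 1.49 ± 0.37 CPM late and 0.48 ± 0.08 CPM early, and 1 member of the list was called higher without the d120 pair or without d50 replicate 1, and none without the d65 pair.

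Fatty acid oxidation had 4 higher and 3 lower of 26, and lipoprotein and cholesterol genes 3 higher and 2 lower of 31. The lipoprotein counts lay near the shares over all genes tested (8.01% higher and 6.06% lower). Both lists had a median of -0.04, and both medians became positive under scaling by library totals alone (0.18 and 0.15). ACSL1, which activates fatty acids, averaged 57 ± 11.8 CPM late and 31.3 ± 7.30 CPM early. APOA5, a regulator of plasma triglyceride, had 54.2 to 92.7 CPM late and 36.7 to 62.7 CPM early, below 105 and 104 CPM at d80. Without the d65 pair no fatty acid oxidation gene was called higher, and without d100 replicate 1 no lipoprotein gene was.

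The insulin-like growth factor axis had 7 higher genes of 19 and none lower, with a median of 1.08, or 0.94 with the 1 member lacking counts on one side set to its bound. IGF1 averaged 4.15 ± 0.70 CPM late and 0.36 ± 0.31 CPM early, and GHR, the growth hormone receptor, averaged 45.6 ± 15.4 CPM late and 19.9 ± 6.02 CPM early. IGFBP2 averaged 1070 ± 456 CPM late and 499 ± 458 CPM early, with 130 and 188 CPM at d50 but 1125 and 554 CPM at d65, so its libraries overlapped. Without the d120 pair 1 member was called higher, and 2 without d50 replicate 1.

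Of 19 glucocorticoid and thyroid response genes 4 rose, with a median of 0.38. KLF9, a glucocorticoid-induced factor, averaged 5.61 ± 2.58 CPM late and 1.14 ± 0.71 CPM early. HSD11B1, which regenerates cortisol, had 68.8 to 92.4 CPM late and 90.9 and 71.5 CPM at d80, against 24.5 to 37.9 CPM early. The list's median was negative without the d65 pair (-0.11) and without the d120 pair (-0.06). KLF15 and THRA, the other 2, lost their calls in 7 of 8 leave-outs, and THRA reversed between d100 and d50.

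**Figure D3:**
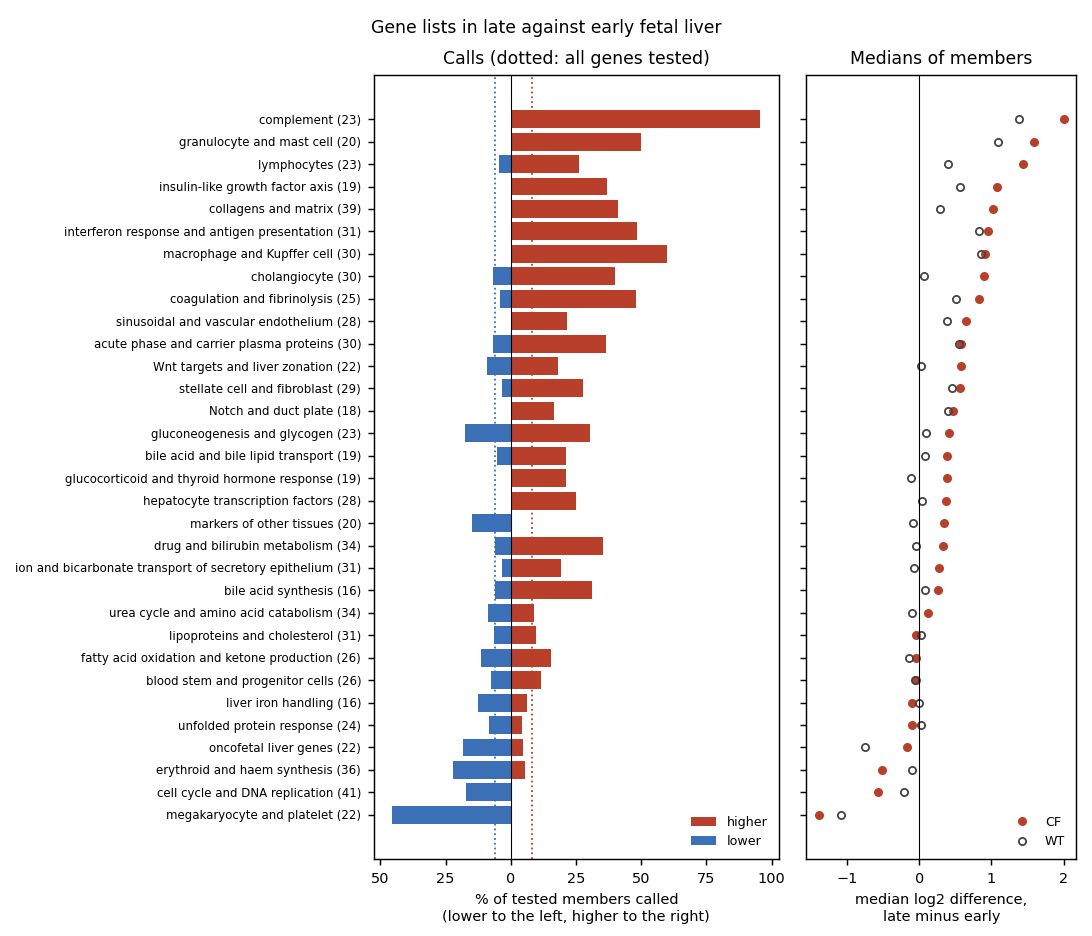
Left, the percentage of tested members of each gene list (number tested in brackets) called higher (right of 0) or lower (left of 0) in late against early CF liver, with dotted lines at 8.01% and 6.06% for all genes tested. Right, the median late minus early log2 difference of each list in CF (filled) and WT (open) liver, from 2.01 for complement to -1.39 for megakaryocyte genes in CF.

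Transcripts of blood formation showed a change in globins and lower erythroid levels in the d120 CF libraries. HBB, a beta-type globin, had 1868 and 1397 CPM at d100 and 4835 and 6975 CPM at d120, against 172 and 103 CPM at d50 and 211 and 349 CPM at d65 (3.98 ± 0.75, log2, SE; edgeR adjusted p = 0.0025). HBZ, the embryonic zeta globin, had 0.55 to 3.30 CPM late against 7.37 to 23.8 CPM early. HBG, annotated as fetal gamma globin, had 109517 and 122333 CPM at d100 and 27525 and 32561 CPM at d120, against 62591 to 148722 CPM early, and was not called (-0.93 ± 0.60, edgeR adjusted p = 0.31). The 3 globins thus moved in different ways, with HBB up, HBZ down, and HBG within its early range at d100 but below it at d120. In WT livers at d120 HBG had 101630 and 86535 CPM, and globin genes took 18.9% and 15.0% of all counts. A genotype difference at d120 alone was not tested. Globin genes are close copies, so reads may be split or shared among them.

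Of 36 erythroid and haem genes 8 fell and 2 rose, with a median of -0.51. The list summed to a mean of 97343 CPM at d100 and 41961 CPM at d120, against 51394 to 99632 CPM in the early libraries. Most of this sum was HBA1, an alpha-type globin, with 68315 and 100767 CPM at d100 and 26341 and 34592 CPM at d120. The sum thus mainly follows HBA1, which was not called (edgeR adjusted p = 0.54). CPOX, a haem synthesis enzyme, averaged 294 ± 94.4 CPM late and 560 ± 100 CPM early. CA2, the red cell and epithelial carbonic anhydrase, was the second gene that rose, to 375 to 578 CPM late against 182 to 248 CPM early. After leaving out the d120 pair, 1 erythroid gene was called lower, without d100 replicate 1 there were 2, and in a fit of the CF libraries alone 18.

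Megakaryocyte and platelet genes fell in 10 of 22 cases and none rose, with a median of -1.39. PF4, a platelet chemokine, had 155 and 164 CPM at d100 and 21.5 and 22.9 CPM at d120, against 315 and 312 CPM at d50 and 199 and 244 CPM at d65 (-2.14 ± 0.18, log2, SE; edgeR adjusted p = 1.1e-06). TUBB1, the platelet tubulin, had 45.4 and 47.7 CPM at d100 and 7.49 and 7.93 CPM at d120, against 59.1 to 101 CPM early. ITGB3, a chain of the platelet fibrinogen receptor, averaged 22.3 ± 15.7 CPM late and 75.5 ± 15.3 CPM early. ITGA2B, the other chain, averaged 32.0 ± 21.3 CPM late and 84.0 ± 13 CPM early. All 4 were lower in every late library than in any early one, as were 5.17% of all genes tested. These genes were picked by smallest p from the same libraries. In all 4 the larger step came between d100 and d120. With the d120 pair left out, 1 member was called lower, and in a fit of the CF libraries alone 16. The list summed to 195 to 564 CPM late and 740 to 1058 CPM early.

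Stem and progenitor genes had 3 higher and 2 lower of 26, beside 8.01% and 6.06% of all genes tested. Their median was -0.05 and became 0.18 under scaling by library totals alone. CD34, the surface marker of blood progenitors and endothelium, averaged 66.9 ± 37.7 CPM late and 169 ± 59.3 CPM early. LMO2, a partner of erythroid and stem cell factors, averaged 95.5 ± 44.3 CPM late and 163 ± 19.9 CPM early. SPI1, the myeloid factor PU.1, rose to 11.7 to 13.1 CPM late against 4.99 to 8.39 CPM early, and CXCL12, the niche chemokine, averaged 54.3 ± 6.87 CPM late and 30.7 ± 6.70 CPM early. None of the 5 was called without the d120 pair. The third gene that rose was IL7, a lymphocyte growth factor named after its values were seen, with 0.16 to 1.80 CPM late and 0 to 0.14 CPM early.

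Cell cycle genes fell in 7 of 41 cases and none rose, with a median of -0.56. MCM6, part of the replicative helicase, averaged 63.7 ± 13.9 CPM late and 103 ± 10.1 CPM early, and its 8 libraries did not overlap. CCNB1, the mitotic cyclin, had 69.7 and 79.0 CPM at d100 and 30.1 and 27.1 CPM at d120, against 57.4 to 131 CPM early. None of the 41 was called lower without the d120 pair or without d100 replicate 1, while 24 were in a fit of the CF libraries alone, and MCM7 reversed between d100 and d50. The cell cycle and erythroid sums were lowest at the same stage, d120, and their shared part was not tested.

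Granulocyte and mast cell genes took another course. Of 20 tested, 10 rose and none fell, with a median of 1.58. S100A9, a neutrophil calcium-binding protein, had 53.7 and 89.1 CPM at d100 and 22.9 and 26.4 CPM at d120, against 4.47 and 3.85 CPM at d50 and 33.7 and 43.0 CPM at d65. LTF, the granule protein lactoferrin, had 17.6 and 30.8 CPM at d100 and 8.67 and 9.59 CPM at d120, against 2.14 to 11 CPM early. Levels of both were lowest at d50, and the late and early libraries overlapped. TPSB2, a mast cell tryptase, averaged 19.4 ± 11.1 CPM late and 1.40 ± 0.92 CPM early without overlap, and FCN1, a myeloid lectin, averaged 2.02 ± 0.87 CPM late and 0.62 ± 0.30 CPM early. Also without the d120 pair, or without the d65 pair, 10 were called higher, and between d100 and d50 9 were, but without d100 replicate 2 the number was 4.

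Of 30 macrophage genes tested, 18 were higher and none lower, with a median of 0.91. For 19 all late libraries lay above all early ones, as for 7.91% of all genes tested. CLEC4G, a lectin of sinusoidal and Kupffer cells, had 44.9 and 45.8 CPM at d100 and 29.7 and 52.7 CPM at d120, against 3.23 to 11 CPM early (2.72 ± 0.28, log2, SE; edgeR adjusted p = 7.8e-06). MSR1, a scavenger receptor, averaged 13.9 ± 7.67 CPM late and 3.57 ± 0.66 CPM early, and FCGR3A, an Fc receptor, averaged 44.0 ± 4.12 CPM late and 12.4 ± 2.89 CPM early. CD5L, a secreted protein of tissue macrophages, had 896 counts in the late libraries and 3 in the early ones, a ratio of 259 with a counting interval of 88.3 to 1257 (95%), which covers counting error only and not the spread between animals. Neither d80 library held a CD5L count. The count of 18 was at least 12 with any library left out, 11 without the d120 pair, 16 without the d65 pair and 8 between d100 and d50. The list summed to 1513 to 1806 CPM late and 884 to 1265 CPM early.

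**Figure D4:**
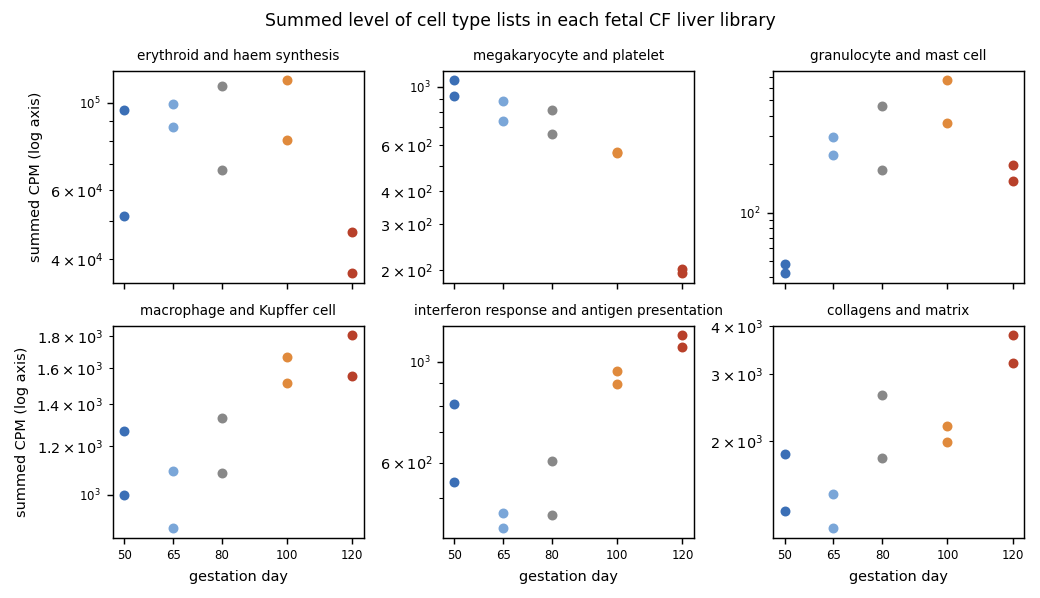
Summed CPM of 6 cell type and matrix lists in each of the 10 fetal CF liver libraries, on a log axis, against gestation day; each point is 1 library. The megakaryocyte list sums to 195 to 564 CPM late and 740 to 1058 CPM early. The macrophage list sums to 1513 to 1806 CPM late and 884 to 1265 CPM early. The erythroid list, whose sum is mostly HBA1, is lowest at d120 with a mean of 41961 CPM.

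Interferon response and antigen presentation genes rose in 15 of 31 cases and none fell, with a median of 0.96. CD74, the invariant chain of class II presentation, had 81.8 and 110 CPM at d100 and 194 and 163 CPM at d120, against 14.9 to 22.1 CPM early (2.76 ± 0.30, log2, SE; edgeR adjusted p = 1.5e-05). B2M, the light chain of class I molecules, averaged 268 ± 83.9 CPM late and 85.4 ± 36.5 CPM early. TAP1, the peptide transporter, averaged 13.7 ± 0.62 CPM late and 7.08 ± 1.49 CPM early, and NLRC5, the class I transactivator, averaged 1.62 ± 0.57 CPM late and 0.31 ± 0.09 CPM early. The 4 named genes belong to antigen presentation. In each, all late libraries lay above all early ones, as for 7.91% of all genes tested. They were picked by smallest p from these same libraries, so the lack of overlap adds no support. The count of 15 became 4 without the d120 pair or without the d65 pair, and 3 without d50 replicate 1.

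Lymphocyte genes had 6 higher and 1 lower of 23, with a median of 1.44, or 1.40 with members lacking counts on one side set to their bound. CD3E, a chain of the T cell receptor complex, had 1.71 and 1.54 CPM at d100 and 5.13 and 4.61 CPM at d120, against 0.12 to 0.35 CPM early. CD2, a T and NK cell adhesion molecule, had 1.94 to 2.73 CPM late against 0.26 to 0.65 CPM early. T cell markers did not all rise. CD3G, another chain of the complex of CD3E, averaged 6.24 ± 2.37 CPM late and 13.4 ± 4.87 CPM early. It was not called (edgeR adjusted p = 0.12), but every late library lay below every early one. The B cell marker CD79A had at most 1.20 CPM and MS4A1 at most 0.38 CPM in the 10 libraries. CD79B was the member called lower. CD3G and CD79B are named after their values were seen. After leaving out the d120 pair, 1 member was called higher, and 2 without d50 replicate 1.

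Bile duct genes had 12 higher and 2 lower of 30, with a median of 0.90. Beside CFTR, ANXA4, an annexin of secretory epithelia, averaged 30.3 ± 15.9 CPM late and 11.5 ± 5.24 CPM early, with overlap, and ITGB4, the basal integrin chain, had 1.29 to 3.15 CPM late against 0.35 to 0.69 CPM early. LGALS2, a galectin, had 0.18 to 6.14 CPM late and 7 counts over all early libraries. SOX9, the duct transcription factor, averaged 9.56 ± 2.90 CPM late and 4.66 ± 2.35 CPM early. The list was not uniform, since the duct keratin KRT19 fell to 13.6 to 36.6 CPM late against 50.6 to 105 CPM early. KRT18 fell as well. Both are named after their values were seen. With the d120 pair left out, 4 members were called higher, and 6 without d120 replicate 1.

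Among 31 ion and bicarbonate transport genes 6 rose and 1 fell, with a median of 0.27. AQP8, a water channel of bile canaliculi, had 320 to 380 CPM late and 266 and 342 CPM at d80, against 92.6 to 161 CPM early. KCNN4, a calcium-activated potassium channel, averaged 11.4 ± 7.79 CPM late and 22.5 ± 9.22 CPM early and was lower at d120 alone (4.42 and 4.98 CPM). Of 18 Notch and duct plate genes, CYR61, SOX9 and ANKRD1 rose, with a median of 0.47, and none was called without the d120 pair or without d120 replicate 1. ANKRD1 averaged 1.57 CPM late and 0.45 CPM early.

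Matrix genes rose in 16 of 39 cases and none fell, with a median of 1.02. COL3A1, a fibrillar collagen, had 228 and 242 CPM at d100 and 536 and 362 CPM at d120, against 68.1 and 111 CPM at d50 and 112 and 113 CPM at d65 (1.69 ± 0.28, log2, SE; edgeR adjusted p = 0.00079). NID1, a basement membrane linker, averaged 130 ± 39.0 CPM late and 57.9 ± 23.1 CPM early. COL6A3 averaged 24.5 ± 2.39 CPM late and 7.78 ± 3.12 CPM early, and COL5A2 61.6 ± 8.96 CPM late and 23.1 ± 3.8 CPM early. All 4 were higher in every late library than in any early one, as were 7.91% of all genes tested. These genes were picked by smallest p from the same libraries. At d80 COL3A1 had reached 163 and 321 CPM. Called higher were 4 members without the d120 pair, 9 without the d65 pair, 10 without d50 replicate 1 and 1 between d100 and d50.

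Stellate and fibroblast genes had 8 higher and 1 lower of 29, with a median of 0.57. DPT, dermatopontin, had 6.53 to 16.9 CPM late against 0.12 to 4.92 CPM early, and MFAP4, a microfibril protein, had 1.72 to 7.31 CPM late against 0 to 1.37 CPM early. MSLN, the mesothelial surface protein, fell to 3.26 ± 1.67 CPM late against 9.58 ± 6.44 CPM early, a call lost in 6 of 8 leave-outs. After leaving out the d120 pair, 2 members were called higher, and 3 without d100 replicate 2.

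Endothelial genes had 6 higher of 28 and none lower, with a median of 0.65. STAB2, a scavenger receptor of sinusoidal endothelium, had 46.8 and 65.5 CPM at d100 and 92.5 and 96.6 CPM at d120, against 32.1 to 53.3 CPM early, and CD36 averaged 336 ± 38.1 CPM late and 203 ± 67.3 CPM early. Both lost their calls without the d120 pair, when 2 members were called higher, and 1 member was without d100 replicate 2. Of 22 Wnt and zonation genes 4 rose and 2 fell, with a median of 0.58. AXIN2, a Wnt target, averaged 3.43 ± 1.20 CPM late and 1.14 ± 0.42 CPM early. OAT, ornithine aminotransferase, fell to 23.1 to 30.8 CPM late against 55.9 to 149 CPM early. GLUL, the other member that fell, averaged 122 ± 4.34 CPM late and 171 ± 21.4 CPM early (edgeR adjusted p = 0.044). It is named after its values were seen. The called members of this list thus moved in both directions. With the d120 pair left out, 1 member of that list was called higher.

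The remaining lists had few called members. Of 16 iron genes CP rose and ID1 and SLC11A2 fell, with a median of -0.10 that became 0.12 under scaling by library totals alone. Of 24 unfolded protein response genes ERN1 rose and CHAC1 and ATF4 fell, with a median of -0.11 that became 0.11 under that scaling. ATF4, a stress transcription factor, averaged 399 ± 114 CPM late and 641 ± 109 CPM early.

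Of 20 genes listed as markers of other tissues none rose and 3 fell. Whether their counts came from other tissue or from liver cells was not tested. VIL1, the brush border protein villin, had 4.84 to 16.4 CPM late against 31.0 to 42.8 CPM early, TNNT3, a muscle troponin, had 1.07 to 7.77 CPM late against 3.35 to 63.9 CPM early, and CELA1 averaged 0.28 CPM late and 1.12 CPM early. The median of the list was 0.34, and -0.21 without the d65 pair. The list summed to 29.9 to 42.9 CPM late and 54.4 to 112 CPM early. The muscle markers CKM and MYH7 averaged at most 0.11 CPM on either side.

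WT livers of the same stages, also 4 late and 4 early, allowed a test of whether CF maturation differed. The WT d50, d100 and d120 pairs each share a donor-number stem. These libraries also enter the estimate of spread for the CF tests. The interaction was called for 4 genes, 0.0242% of those tested, all with a more positive change in CF, while 2075 genes had an unadjusted p under 0.05. The only one of these with a mean over 100 CPM was C5, at 246 ± 150 CPM late and 29.6 ± 16.7 CPM early in CF livers, and 177 ± 38.1 CPM late and 88.2 ± 44.8 CPM early in WT livers (SD, n = 4 each). Its late minus early difference was 2.99 in CF and 1.06 in WT, 1.93 ± 0.30 apart (log2, SE; edgeR adjusted p = 0.027). CF livers were below WT livers at d65, at 21.1 and 11.9 CPM in CF and 153 and 82.4 CPM in WT, and above them at d120, at 402 and 345 CPM in CF and 202 and 217 CPM in WT. The C5 interaction lost its call in 11 of the 16 leave-outs, without the d65 pair and with 1 unit per donor-number stem.

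GDA, guanine deaminase, and NESP55, an imprinted transcript of the GNAS locus, had a mean under 3 CPM in every group and no count in either CF d65 library. GDA had 1.51 to 2.30 CPM late and 0 to 0.89 CPM early in CF livers, and 0.35 to 1.03 CPM late and 0.96 to 1.59 CPM early in WT livers. NESP55 averaged 1.29 ± 0.94 CPM late and 0.60 ± 0.71 CPM early in CF livers, and 0.95 ± 0.21 CPM late and 2.67 ± 0.77 CPM early in WT livers. LOC105609898, a locus without a symbol, averaged 8.75 ± 2.46 CPM late and 6.74 ± 2.31 CPM early in CF livers, and 0.59 ± 0.21 CPM late and 3.71 ± 0.81 CPM early in WT livers. Its lower late level was seen in WT and not in CF, and the interaction was 3.07 ± 0.41 (log2, SE; edgeR adjusted p = 0.010). GDA and NESP55 lost their calls in 14 leave-outs each, without the d65 pair and with 1 unit per donor-number stem. LOC105609898 lost its call in 3 leave-outs (without CF d120 replicate 2, WT d100 replicate 2 or WT d120 replicate 2) and with 1 unit per donor-number stem (edgeR adjusted p up to 0.23). GDA, NESP55 and the locus are named because so few were called, not by level.

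**Figure D5:**
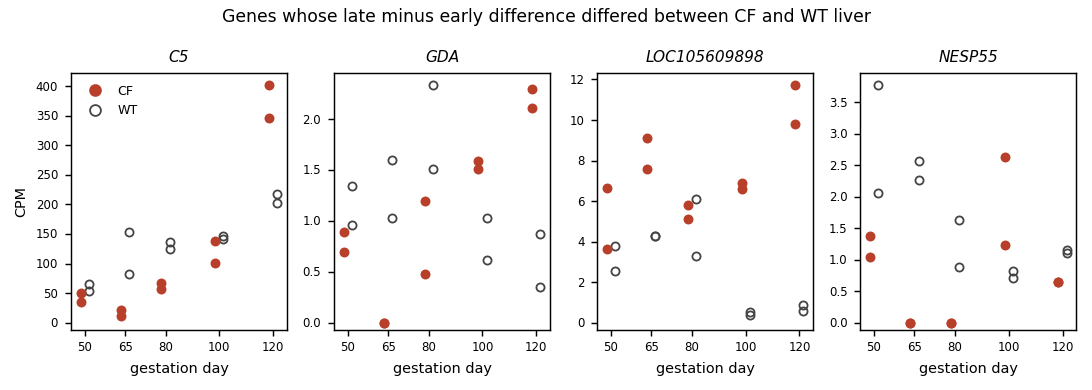
CPM in each fetal liver library against gestation day for the 4 genes whose late minus early difference was called as different between genotypes (filled, CF; open, WT). C5 in CF lies below WT at d65 and above it at d120, and GDA and NESP55 stand at 0 in both CF d65 libraries.

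Several other genes had an interaction estimate that did not reach the threshold. B3GALT5, a galactosyltransferase, had a late minus early difference of 2.16 in CF and -0.69 in WT, 2.85 ± 0.50 apart (log2, SE; edgeR adjusted p = 0.064). ABCC2 had 1.52 in CF and -0.11 in WT (edgeR adjusted p = 0.096 for the difference). TUBB1 had -2.09 in CF and -1.03 in WT, and S100G had -8.46 in CF and -4.43 in WT (edgeR adjusted p = 0.15 for each difference). Of the 32 lists, complement alone held a member with a called interaction, and that was C5. The median change of the complement list was 2.01 in CF and 1.38 in WT, of the macrophage list 0.91 in CF and 0.86 in WT, of the matrix list 1.02 in CF and 0.29 in WT, and of the bile duct list 0.90 in CF and 0.07 in WT. Without the CF d120 pair the CF median was 0.40 for both the matrix and the bile duct list, 1.81 for complement and 0.97 for the macrophage list. These list medians were not tested against each other.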

How the data were processed

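The authors' deposited liver table gives 1 estimated count per gene and library. Its values are named otherwise in the deposit, but library totals of 29705597 to 56808639 are those of counts, and whether the estimated counts were rescaled for transcript length is not known. The submitters' processing notes name Salmon (versions 1.9.0 and 1.10.1) and STAR (2.7.9a), with DESeq2, edgeR and limma, and the genome build is not given in the sources used here. Of 22981 genes, 6080 carry only a locus number, of which 127 matched a symbol in the RefSeq table of assembly ARS-UI_Ramb_v3.0. The estimated counts were rounded, genes with low counts were removed with edgeR's filter (16508 kept), libraries were scaled by TMM factors, and a quasi-likelihood model over all 24 liver libraries, with 1 mean per genotype and stage, was fitted with edgeR 4.0.16 in R 4.3.3. Fits of DESeq2 1.42.0 and other settings were alternatives. Named genes were CFTR, the 10 largest changes per direction among called genes of at least 5 CPM without overlap, up to 4 called members per list by smallest p, the genes with the smallest interaction p, called d80 extremes, and the 10 with most counts late and early. The libraries compared, the 32 gene lists and the rule were chosen with earlier results of these data known. Donor numbers in the labels differ between replicates, but some share a stem whose meaning the labels do not give, so p-values measure the spread between these libraries. The depth limits precision for genes under about 1 CPM. Promoter motifs were not analysed here. Genes of the lists named outside that rule (among them CFP, HNF4A, SERPINA6, ADH4, BLVRB, ACOT8 and ABCG5) were picked after their values were seen. One gene that the rule names is not reported here.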

Additional observations from a re-analysis of the deposited data

Results flagged for a closer look

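In 42 groups of 4 libraries, 1 library stood far from the other 3 for 3 genes, where chance gives about 1 group in 20. PRG4 had 0.50 CPM in CF d65 replicate 2 and at most 0.08 CPM in the other early libraries. CP had 17.3 CPM in the same library and at most 1.49 CPM in the other early ones. STEAP1 had 0.75 CPM in CF d100 replicate 1, above the other late libraries. The late minus early change differed between CF and WT, by the interaction test, by 1.93 log2 units for C5, 6.17 for GDA, 3.07 for LOC105609898 and 5.87 for NESP55. For GDA and NESP55 both CF d65 libraries held no count, so these fitted values depend on the small count added by the model.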

How the results depend on the processing

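Against 1322 higher genes, 764 were called with 1 mean per period, 502 with 1 unit per donor-number stem, 538 by a slope over gestation day, 544 without the d65 pair, 313 without the d120 pair, 207 between d100 and d50, and 554 to 1221 with 1 library left out. Against 1000 lower genes, those settings gave 348, 188, 263, 375, 40, 56 and 271 to 1113, DESeq2 gave 1757 and library totals alone 382. For d80 against early liver, against 228 genes, 1 unit per stem gave 7, DESeq2 704, library totals 138, no d65 pair 657 and leave-outs 61 to 200. For late liver against d80, against 69 genes, 1 unit per stem gave 3, DESeq2 803, CF libraries alone 231, no filter 149 and leave-outs 10 to 61. For the interaction, against 4 genes, 1 unit per stem gave 1, DESeq2 232, library totals 12, no filter 18, no d65 pair 1 and leave-outs 0 to 7. The gene called with 1 unit per stem was not among the 4. The cause was not tested.

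Of 134 named genes called, 97 were called in every leave-out, 89 without the d65 pair, 61 without the d120 pair, 43 between d100 and d50, and 134 by DESeq2. Reversals were few. Between d100 and d50 they were AHSG at 0.15, APOA2 at 0.41, HBA1 at 0.43, HBG at 0.39, KMT2B at 0.62, CDH1 at -0.013, ERN1 at -0.26, ID1 at 0.077, IGF2 at -0.081, KCNN4 at 0.12, MCM7 at 0.10, NR1H4 at -0.083, THRA at -0.59 and TNNT3 at 0.23. Without the d120 pair they were APOA2 at 0.17, HBA1 at 0.26, HBG at 0.040 and KMT2B at 0.45, and without the d65 pair AHSG at 0.055, APOA2 at 0.031 and KMT2B at 0.12. Library totals reversed AHSG (0.031), KMT2B (0.16) and TF (0.17), and 1 mean per period KMT2B (0.023). With 1 library left out, TF ranged from -0.16 to 0.10, KMT2B from -0.31 to 0.20 and ALB from -0.0012 to 0.27.

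No paired analysis was possible because the replicate numbers were given in accession order and pair no libraries. Genes with no count at 1 stage, 123 of the higher ones at d65, have fitted folds that depend on the added count. With 2 libraries per stage, single-stage steps rest on few data.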
